A study of Homo sapiens with 4 samples.

Results

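The genes described here are 37 known targets of the transcription factor p53, among them PADI4, measured in hFOB 1.19 cells as they were led into mineralization. They were chosen by symbol as known members of the p53 pathway, by a rule that uses no measured value. Earlier results of these data were known at the time, however, and the study had picked out PADI4 with the help of its mRNA sequencing. All 37 were found among the 19610 gene symbols of the mRNA table, and all 37 were among the 12859 symbols that reached at least 1 FPKM (fragments scaled to transcript length and to the size of the library) in any library. The series holds 4 RNA-seq libraries of this line. One group, the control, was taken on differentiation day 0, and the other libraries came from cells undergoing mineralization on differentiation days 3, 6 and 9, with 1 library per time point. By the study's culture methods, day 0 cells were grown at the lower temperature that permits division, and mineralization took place at a higher temperature. No genotype or drug differed between the libraries.

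The line is a clonal human fetal osteoblast line, immortalised by a temperature-sensitive SV40 large T antigen, so every library carries the same transgene. The time in culture, the shift in temperature and differentiation cannot be told apart in these 4 libraries. The transgene itself was not analysed here. As the RNA is from bulk cells, fewer cells of a type and less RNA per cell cannot be told apart either.

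p53 is a transcription factor that is held at a low level in unstressed cells by the ubiquitin ligase MDM2 and is stabilised by DNA damage and other stresses. It binds a response element built of a pair of half-sites and raises the transcription of genes for cell cycle arrest, apoptosis, DNA repair and metabolism, and of MDM2 and other genes that limit p53 itself. SV40 large T antigen is known to bind p53 and the retinoblastoma protein, and the temperature-sensitive form loses function at the higher temperature. PADI4 encodes a peptidylarginine deiminase, an enzyme that converts arginine in proteins such as histones to citrulline, and is itself a known target of p53.

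The p53 response element was searched for in the promoters of these genes, and some of the best matches are shown because p53 binds such an element. The group itself was chosen by symbol and not by this element. Promoters were taken from RefSeq (GRCh38.p14) as 300 bases, 250 before and 50 after the transcription start. The p53 consensus of 20 bases, 2 half-sites of 10 bases with no spacer, reads the same on both strands, so 1 search covered both. At most 3 mismatches were allowed. The 4 core bases of each half-site are in capitals, and the C that opens and the G that closes each core had to match.

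DDB2: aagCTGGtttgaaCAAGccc
AEN: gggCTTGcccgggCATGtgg
FAS: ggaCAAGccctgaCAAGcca
MDM2: ggtCAAGttcagaCACGttc
FDXR: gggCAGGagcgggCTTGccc
GDF15: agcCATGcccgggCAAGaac
SESN1: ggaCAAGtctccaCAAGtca

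The DDB2 match had 1 mismatch and lay at chr11:47214969-47214988 on the plus strand, with its first base at position -5 from the start. Matches with 2 mismatches lay in AEN at chr15:88621306-88621325 on the plus strand, in FAS at chr10:88991309-88991328 on the plus strand and in MDM2 at chr12:68808923-68808942 on the plus strand. Matches with 3 mismatches were found in FDXR at chr17:74872996-74873015 on the minus strand, in GDF15 at chr19:18386186-18386205 on the plus strand, in SESN1 at chr6:109009018-109009037 on the minus strand, and in PMAIP1 and RPS27L. Of the 30 targets with a promoter in the table, 9 (30%) held a match, against 373 of 27305 symbols (1.37%) in all. PADI4 and CDKN1A were not among these 9. The genes were picked as known p53 targets, so a share above that of all symbols was likely in advance. Among 100 symbols listed for comparison as other p53 targets, 80 had a promoter and 11 of these (13.8%) held a match. The 100 hold both TIGAR and C12orf5, which name the same gene. A match is a stretch of letters and was not measured as a binding site in these cells, and no match says only that these letters are not in this window.

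A gene is called higher or lower here where the log2 ratio of FPKM + 1 between 2 libraries was at least 1 or at most -1, a 2-fold limit. With 1 library per time point no ratio has a replicate check, so no test was made and no p-value was computed. FPKM carry no read counts, so the depth behind each value is unknown and no interval can be given. The comparisons of days 3, 6 and 9 with day 0 share the day 0 library, so that an error in this library would move all 3 of them together. The cells had the RNA of an osteoblast line in part: COL1A1, which encodes a chain of type I collagen, was between 777 and 1974 FPKM, and RUNX2, the master regulator of the osteoblast lineage, between 7.37 and 26.2, while SP7, BGLAP and IBSP, which mark maturing osteoblasts, stayed under 1 FPKM in every library. Of 9 osteoblast markers, 6 passed the minimum and 4, 5 and 4 were higher on days 3, 6 and 9, beside 8.13%, 9.01% and 9.6% of all genes. COL1A2, ALPL and RUNX2 were higher on all 3 days, COL1A1 on days 3 and 6 and SPP1 on days 6 and 9. ALPL and SPP1 (0.794 FPKM) were under 1 FPKM on day 0 and passed the minimum only through later libraries. For such genes the minimum itself favoured a rise. COL1A2 had 125 FPKM on day 0 and 856, 753 and 561 later, ALPL, the alkaline phosphatase of mineralizing cells, had 0.294 and then 4.32, 4.35 and 4.18, and RUNX2 had 7.37 and then 26.2, 19.3 and 18.2. The medians of the 6 genes were 1.52, 1.53 and 1.60. Of 13 markers of other cell types, 9 never reached 1 FPKM, among them PTPRC of leukocytes, PECAM1 of endothelium, EPCAM of epithelium and MYOD1 of muscle. CD14, KRT18, PPARG and SOX9 passed it, and 1 of the 4, SOX9, was higher on all 3 days, with 1.21 FPKM and then 4.48, 5.08 and 5.32, while KRT18 was lower on days 6 and 9. The 4-gene median of the log2 ratios was 0.08, 0.30 and 0.21.

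Against day 0, the p53 targets were higher as a group on each later day, and 0 of 37 were lower on any. On day 3, 31 of 37 were at least 2-fold higher, while 8.13% of all genes were higher and 5.3% were lower. On day 6 the count was 30 of 37, beside 9.01% of all genes higher and 6.42% lower. On day 9 it was 32 of 37, beside 9.6% higher and 6.52% lower. The median log2 ratio of the 37 was 1.75, 1.60 and 1.64 on days 3, 6 and 9, against -0.08, -0.08 and -0.09 over all genes. SPATA18, TNFRSF10C and PADI4 were under 1 FPKM on day 0 and passed the minimum only through later libraries. When the libraries were rescaled to a common sum, the split of all genes moved to 12.7% higher and 3.65% lower for day 3. It moved to 13.2% and 4.54% for day 6 and to 12.3% and 5.74% for day 9, while 0 of the 37 were lower under this scaling too.

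Of the 37, 32 (86.5%) were past the 2-fold limit upward on any later day, as were 12.1% of all genes, and 30 (81.1%) were past it on all 3, as were 5.93%. A 4-fold limit on all 3 days was passed by 15 of the 37 (1.24% of all genes). By any amount, 36 of 37 were above day 0 on all 3 days, which holds for 36.1% of all genes, and STEAP3 was the exception. The summed FPKM of the 37 was 0.168% of all FPKM on day 0 and then 0.995%, 0.915% and 0.866% at the later times.

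**Figure D1:**
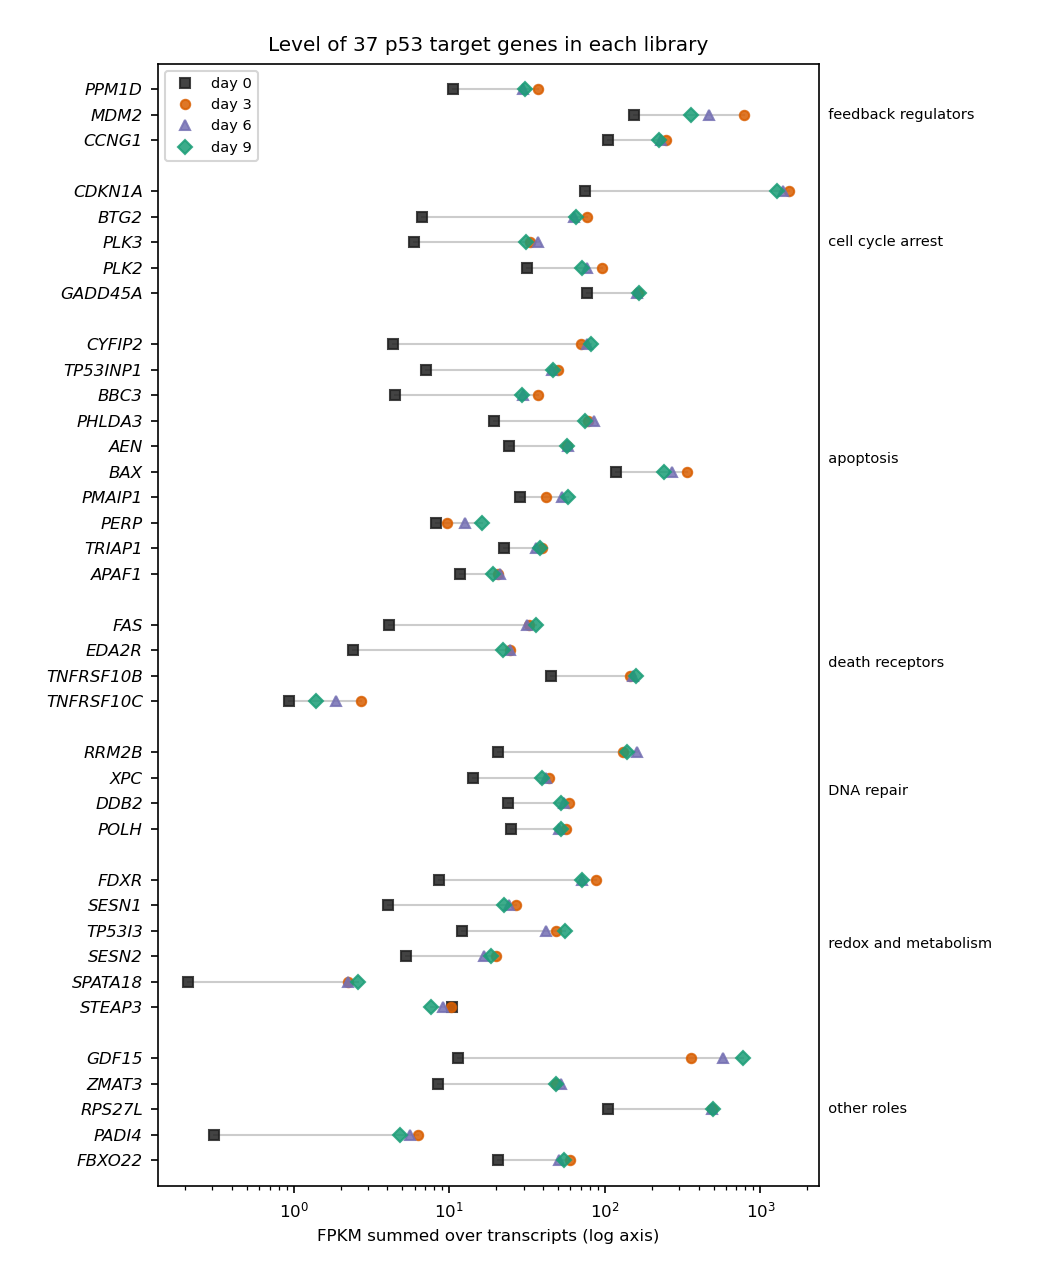
FPKM of each of the 37 p53 targets (log axis) in the day 0, day 3, day 6 and day 9 library, grouped by role, with 1 point per library and a grey line from the lowest to the highest value. For 36 genes the day 0 square is the lowest point, and only for STEAP3 is it the highest.

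Genes that limit p53 in return came first in the order of roles, and all 3 were higher on all 3 later days. MDM2 (ENSG00000135679), the ubiquitin ligase that marks p53 for degradation, was at 154 FPKM on day 0 and at 787, 467 and 359 FPKM on days 3, 6 and 9. Its level was highest on day 3 and lower at each later time, and the log2 ratio to day 0 went from 2.35 to 1.60 and 1.22. PPM1D (ENSG00000170836), the WIP1 phosphatase that removes activating phosphates from p53, had 10.5, 37.2, 29.6 and 30.5 FPKM from day 0 to day 9, with log2 ratios of 1.73, 1.41 and 1.45. CCNG1 (ENSG00000113328), cyclin G1, had 105 FPKM on day 0 and then 249, 228 and 224, with log2 ratios of 1.23, 1.11 and 1.08.

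The MDM2 value is a sum over 21 listed transcripts. The most abundant, ENST00000539479, went from 27.8 FPKM on day 0 to 316, 194 and 148, and made up 18.1% of the sum on day 0 and between 40.1% and 41.5% later. Another, ENST00000544561, had 48.9, 82.8 and 14.3 FPKM on days 0, 3 and 6 and was listed at 0 on day 9. With the most abundant transcript in place of the sum, the log2 ratios of MDM2 were 3.46, 2.76 and 2.37, larger than those of the sum, with the same order of days.

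All 5 genes of cell cycle arrest were higher on all 3 later days. CDKN1A (ENSG00000124762; chromosome 6, 36676459 to 36687339 in the authors' comparison table, whose build is not named), the p21 inhibitor of cyclin-dependent kinases, was at 74.7 FPKM on day 0 and at 1524, 1391 and 1283 FPKM on days 3, 6 and 9. These levels are 20.4, 18.6 and 17.2 times that of day 0, with log2 ratios of 4.33, 4.20 and 4.08. By level, CDKN1A ranked 1297th of the 12859 genes on day 0 and 39th, 43rd and 47th later, which made it the most abundant of the 37 on every later day. By size of rise it ranked 6th, 15th and 27th of all genes on days 3, 6 and 9. A single transcript, ENST00000244741, held between 93.7% and 95.4% of its FPKM in every library.

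BTG2 (ENSG00000159388), an antiproliferative gene that acts on mRNA deadenylation, had 6.64 FPKM on day 0 and 76.3, 63.5 and 65.1 later, with log2 ratios of 3.34, 3.08 and 3.11. PLK3, a stress-responsive polo-like kinase, had 5.95 FPKM and then 33.2, 37.1 and 31.2, with log2 ratios of 2.30, 2.46 and 2.21. PLK2, its relative, had 31.5 and then 96.1, 76.9 and 70.8, with log2 ratios of 1.58, 1.26 and 1.15. The rise of PLK2 was thus the smaller of the pair on each day. GADD45A, a stress sensor that acts on growth arrest and DNA repair, was close to the limit, with 76.9 FPKM on day 0 and 163, 161 and 166 later, and log2 ratios of 1.07, 1.06 and 1.10.

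**Figure D2:**
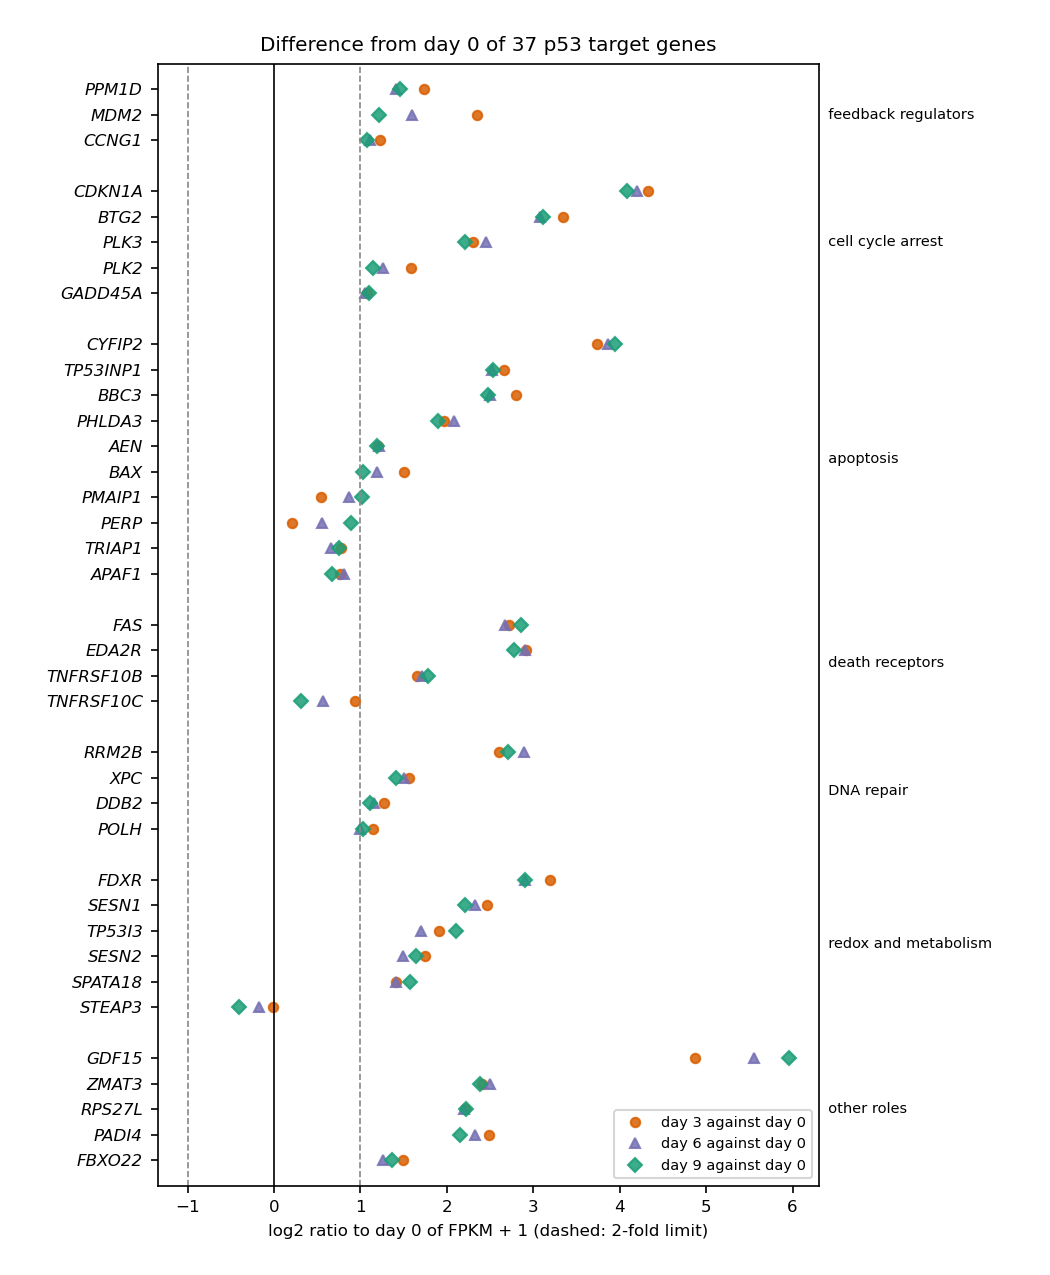
Log2 ratio of FPKM + 1 to day 0 of each of the 37 p53 targets on days 3, 6 and 9, grouped by role, with the 2-fold limits dashed. GDF15 and CDKN1A lie farthest to the right, the ratios of most genes fall close together on the 3 days, and PERP, TRIAP1, APAF1, TNFRSF10C and STEAP3 stay between the dashed lines on all of them.

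The 10 genes of apoptosis were more uneven. Of these, 6, 6 and 7 were higher on days 3, 6 and 9, with medians of 1.36, 1.20 and 1.11. CYFIP2 (ENSG00000055163), a partner of the fragile X protein, rose most within the role, from 4.34 FPKM to 70.2, 76.9 and 81.2, with log2 ratios of 3.74, 3.87 and 3.94. BBC3, the BH3-only protein PUMA, had 4.48 FPKM on day 0 and 37.01, 29.9 and 29.5 later, with log2 ratios of 2.80, 2.50 and 2.48. TP53INP1, a stress protein that acts with p53 and in autophagy, had 7.13 FPKM and then 50.3, 45.6 and 46.1, with log2 ratios of 2.66, 2.52 and 2.53. In these 3 genes each later library was at least 6.39 times the day 0 level.

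PHLDA3, an inhibitor of AKT signalling, had 19.3 FPKM on day 0 and 78.01, 85.01 and 74.3 later, with log2 ratios of 1.96, 2.08 and 1.89. BAX, the pore-forming effector of mitochondrial apoptosis, was the most abundant of the role in every library, with 118, 337, 270 and 241 FPKM and log2 ratios of 1.51, 1.19 and 1.03. AEN, an exonuclease, had 24.3 FPKM and then 57.4, 57.7 and 56.8, with log2 ratios of 1.21, 1.21 and 1.19. BAX came nearer to the limit with each later day, while the later levels of AEN lay within 1.02 times of each other.

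The other genes of apoptosis were near or under the limit. PMAIP1, the BH3-only protein NOXA, had 28.3, 41.9, 52.7 and 58.4 FPKM from day 0 to day 9, and its log2 ratios of 0.55, 0.87 and 1.02 passed the limit on day 9, though with its most abundant transcript in place of the sum the day 9 value was 0.95. PERP, a membrane protein of desmosomes, had 8.25, 9.67, 12.6 and 16.2 FPKM, with log2 ratios of 0.21, 0.55 and 0.90. Both were higher at each later time point than at the one before. TRIAP1, which takes part in lipid transfer in mitochondria, had 22.6 FPKM and then 39.2, 36.3 and 38.5, with log2 ratios between 0.66 and 0.77. APAF1, the scaffold of the apoptosome, had 11.7 FPKM and then 20.5, 21.2 and 19.1, with log2 ratios between 0.67 and 0.81. Neither reached the limit on any day, although every later library was at least 1.61 times day 0 for both.

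Of the 4 death receptors, 3 were higher on all 3 later days, and the medians of the role were 2.19, 2.20 and 2.28. FAS (ENSG00000026103), the receptor of FAS ligand, had 4.10 FPKM on day 0 and 32.6, 31.6 and 36.0 later, with log2 ratios of 2.72, 2.68 and 2.86. EDA2R (ENSG00000131080), the receptor of ectodysplasin A2, had 2.41 FPKM and then 24.7, 24.6 and 22.3, with log2 ratios of 2.91, 2.91 and 2.77. TNFRSF10B, the TRAIL receptor DR5, was the most abundant, with 45.3, 145, 151 and 158 FPKM and log2 ratios of 1.66, 1.71 and 1.78. TNFRSF10C, a decoy receptor of TRAIL without a death domain, had 0.933, 2.69, 1.88 and 1.39 FPKM, and its log2 ratios of 0.93, 0.57 and 0.31 stayed under the limit. At so low a level the pseudocount weighs on the ratio: with 0.1 in place of 1, the day 3 value of TNFRSF10C was 1.43.

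Genes of DNA repair and nucleotide supply were 4 in number, of which 4, 3 and 4 were higher on days 3, 6 and 9. RRM2B (ENSG00000048392), the p53-inducible subunit of ribonucleotide reductase, had 20.6 FPKM on day 0 and 129.9, 159.7 and 139 later, with log2 ratios of 2.60, 2.90 and 2.70. Its day 6 value includes a transcript, ENST00000519962, at 20.1 FPKM that was listed at 0 in the other libraries. XPC, the damage sensor of global nucleotide excision repair, had 14.2 FPKM and then 43.8, 42.1 and 39.4, with log2 ratios of 1.56, 1.504 and 1.41. DDB2, which recognises ultraviolet lesions and whose promoter match is the closest shown above, had 23.7 FPKM and then 58.8, 54.3 and 52.5, with log2 ratios of 1.27, 1.16 and 1.11, the last of which was 0.94 with its most abundant transcript. POLH, the translesion polymerase eta, had 24.8 FPKM and then 56.0, 50.4 and 51.9, and its log2 ratios of 1.14, 0.99 and 1.03 missed the limit on day 6, and with its most abundant transcript the day 9 value was 0.92. RRM2B thus rose further than the 3 genes that act on DNA lesions, which lay between 0.99 and 1.56 on all days.

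In redox and metabolism, 5 of 6 genes were higher on all 3 later days. FDXR (ENSG00000161513), the ferredoxin reductase of mitochondria, rose most, from 8.65 FPKM to 87.1, 71.5 and 71.5, with log2 ratios of 3.19, 2.91 and 2.91. SESN1 had 4.03 FPKM on day 0 and 26.7, 24.2 and 22.3 later, with log2 ratios of 2.46, 2.33 and 2.21. SESN2 had 5.26 FPKM and then 20.1, 16.6 and 18.5, with log2 ratios of 1.75, 1.49 and 1.64. Both sestrins restrain mTORC1, and SESN1 moved further than SESN2 on each day.

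TP53I3, a quinone oxidoreductase also known as PIG3, had 12.1 FPKM on day 0 and 48.3, 41.7 and 55.5 later, with log2 ratios of 1.91, 1.71 and 2.11. SPATA18, which acts in the quality control of mitochondria, had 0.208 FPKM and then 2.22, 2.23 and 2.60, with log2 ratios of 1.42, 1.42 and 1.57. As SPATA18 was under 1 FPKM on day 0, its log2 ratios understate a ratio of FPKM of at least 10.7 on every later day, and with its most abundant transcript in place of the sum they were 0.93, 1.07 and 0.98. STEAP3, a ferrireductase of the endosome, was at or under its day 0 FPKM in every later library, with 10.4, 10.3, 9.10 and 7.61 FPKM and log2 ratios of -0.01, -0.17 and -0.40, all within the limit. Its day 3 value turned to 0.07 when the median of all genes was set to 0 and to 0.18 when the libraries were rescaled to a common sum.

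Among the 5 genes of other roles, all were higher on all 3 later days. GDF15 (ENSG00000130513), a secreted cytokine of the TGF-beta superfamily that is induced by many stresses, had the largest ratio of the 37 on each later day, with 11.4 FPKM on day 0 and 359.8, 578 and 767 FPKM on days 3, 6 and 9. These levels are 31.7, 50.9 and 67.6 times that of day 0, with log2 ratios of 4.87, 5.55 and 5.96. By size of rise it ranked 4th, 2nd and 6th of the 12859 genes on the later days, and its level went from rank 7236 to 190, 127 and 97. GDF15 was higher again at each later time, where CDKN1A, next to it in size, was highest on day 3.

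ZMAT3, an RNA-binding zinc finger protein, had 8.41 FPKM on day 0 and 48.8, 52.2 and 48.3 later, with log2 ratios of 2.40, 2.50 and 2.39. RPS27L, a ribosomal protein, had 105 FPKM and then 487, 485 and 492, with log2 ratios of 2.21, 2.20 and 2.23. RPS27L resembles RPS27, and how reads were split between them is not stated. RPS27, named after its values were seen, was at 3763 FPKM on day 0 and between 3539 and 3574 later, with log2 ratios between -0.09 and -0.07. FBXO22, a substrate receptor of a ubiquitin ligase, had 20.5 FPKM and then 59.5, 50.7 and 54.5, with log2 ratios of 1.49, 1.26 and 1.36. RPS27L was the steadiest of the role, with later levels within 1.02 times of each other.

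PADI4 (ENSG00000159339; chromosome 1, 17308194 to 17364004 in the authors' table) went from 0.306 FPKM on day 0 to 6.33, 5.56 and 4.80 FPKM on days 3, 6 and 9. All 3 later libraries were above day 0, and the level was highest on day 3 and lower at each later time. The log2 ratios were 2.49, 2.33 and 2.15, which ranked PADI4 103rd, 166th and 247th of the 12859 genes by size of rise. The ratio of FPKM was 20.7, 18.2 and 15.7, but the denominator is under 1 FPKM, and with a pseudocount of 0.1 the log2 ratios were 3.99, 3.80 and 3.60. Its level stayed modest among the 37: on day 3, TNFRSF10C and SPATA18 alone were lower. A single transcript, ENST00000375448, held 100% of the FPKM on days 0 and 9, 95.8% on day 3 and 92.1% on day 6.

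The study set PADI4 beside miR-1301-3p, and miR-34a is the best known miRNA under p53, so both mature sequences are shown with the seed (bases 2 to 8) in capitals.

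hsa-miR-1301-3p: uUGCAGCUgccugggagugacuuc
hsa-miR-34a-5p: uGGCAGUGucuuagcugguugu

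They lie at chr2:25328651-25328674 on the minus strand and chr1:9151735-9151756 on the minus strand (RefSeq, GRCh38.p14). Their seeds differ. No level of either mature miRNA was analysed here.

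The relatives of PADI4 were low on day 0 as well. PADI1 had 0.262, 2.03, 2.17 and 2.18 FPKM from day 0 to day 9, with log2 ratios of 1.26, 1.33 and 1.33. PADI2 had 0.169, 1.92, 2.01 and 1.60 FPKM, with log2 ratios of 1.32, 1.36 and 1.15. PADI3 had 0.185, 2.87, 2.31 and 2.68 FPKM, with log2 ratios of 1.71, 1.48 and 1.63. All 3 were past the limit on all 3 later days, with levels under that of PADI4 in every library, while PADI6 reached at most 0.0860 FPKM and did not pass the minimum. PADI1, PADI2, PADI3 and PADI4 were under 1 FPKM on day 0 and passed the minimum only through later libraries. A PADI gene that stayed at such a level would have been left out, so the minimum itself favoured those that rose. The PADI genes are related in sequence, and how reads that fit several of them were assigned is not stated.

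**Figure D3:**
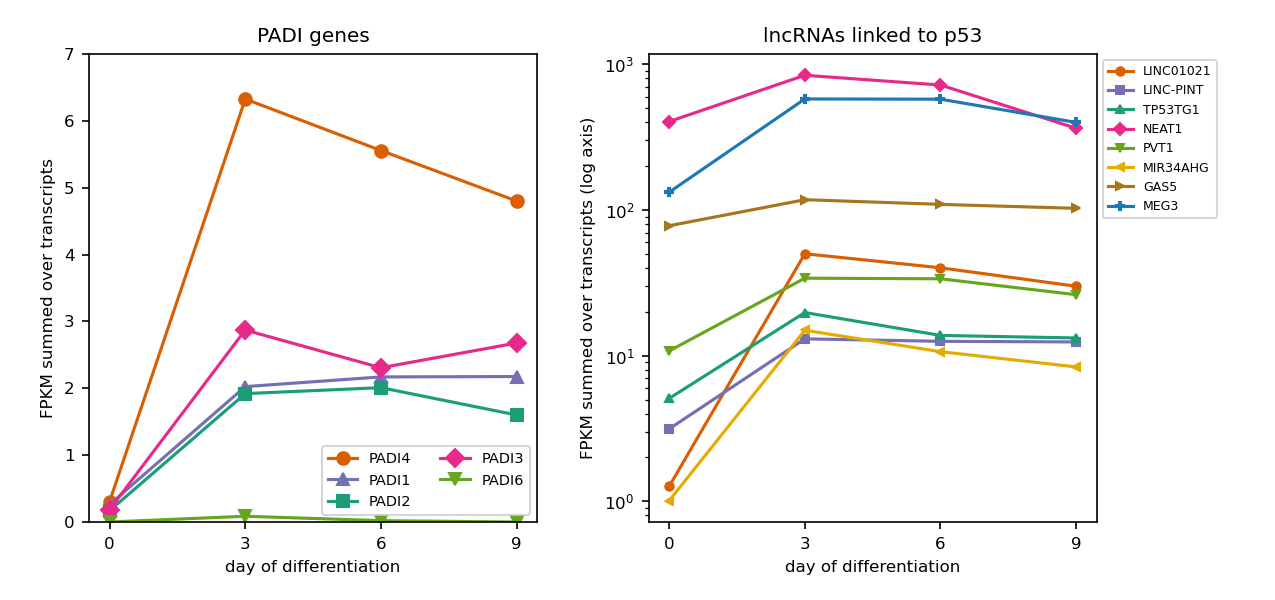
FPKM by day of differentiation, with 1 library per point, of the PADI genes (left, linear axis) and of 8 long noncoding RNAs linked to p53 (right, log axis). PADI4 lies above its relatives in every library, and LINC01021 and MIR34AHG rise most on the right.

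From day 3 on, the 37 targets moved little, as did most genes. Their counts past the limit lay near the shares of all genes. Between days 3 and 6, 0 of 37 passed the 2-fold limit, beside 0.607% of all genes higher and 0.443% lower, and the median log2 ratio was -0.11. Between days 6 and 9 the count was again 0 of 37, beside 0.381% higher and 0.163% lower, with a median of -0.02. These comparisons do not use the day 0 library, though they share day 6. The extremes were MDM2, with -0.75 from day 3 to day 6 and -0.38 from day 6 to day 9, and GDF15, with 0.68 and 0.41. Across the later libraries the highest level was 2.19 times the lowest for MDM2, 2.13 times for GDF15, 1.93 times for TNFRSF10C and 1.68 times for PERP, and no more than 1.40 times for any other.

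Day 3 held the highest level of 20 of the 37 (54.1%), day 6 of 6 (16.2%), day 9 of 10 (27%) and day 0 of 1 (2.7%). Over all genes these shares, in the same order, were 19.2%, 12.3%, 22.4% and 46%. The level was lower on day 6 than on day 3 and lower again on day 9, by any amount, for 14 of 37 (37.8%, against 26.4% of all genes), among them MDM2, CDKN1A and PADI4. For 6 of 37 (16.2%, against 28.8%) it was higher at both steps, among them GDF15, PMAIP1 and PERP. Of the 97 other targets, 28.9% were lower and 33% higher at both steps, so the leaning of the 37 toward day 3 was not shared by that list. Most of these steps were small, and 1 library per time point gives no measure of how far such steps vary between cultures.

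**Figure D4:**
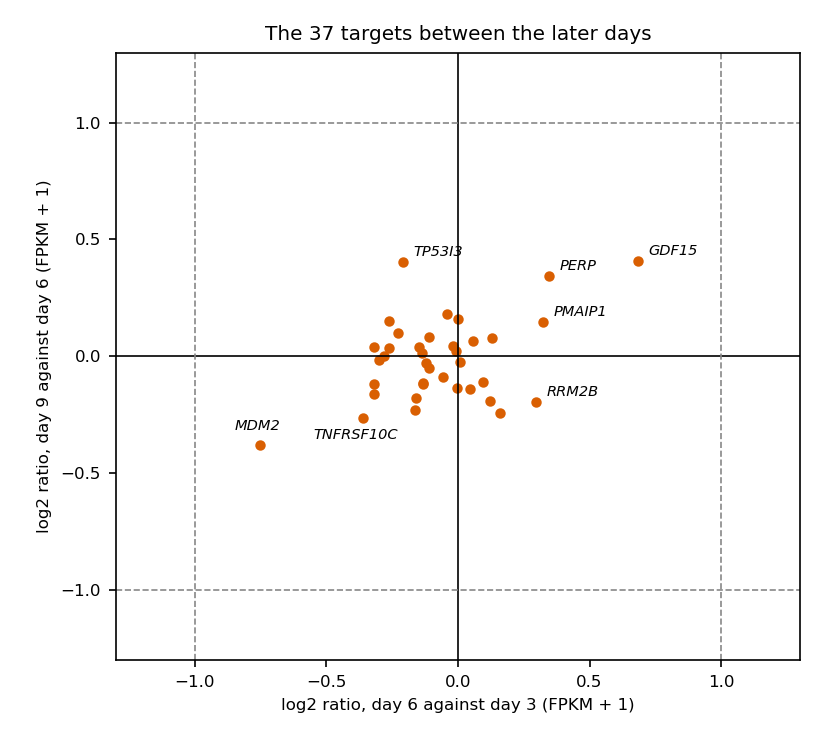
Log2 ratio of FPKM + 1 from day 3 to day 6 (horizontal) and from day 6 to day 9 (vertical) for the 37 p53 targets, with the 2-fold limits dashed. All points lie inside the limits, with MDM2 at the lower left and GDF15 at the upper right.

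Most regulators of p53 stayed within the limit, as did most genes. Of 22 listed symbols that act on p53 or with it, 20 passed the minimum, of which 1, 2 and 2 were higher and 2, 2 and 1 were lower on days 3, 6 and 9. The shares higher were 5%, 10% and 10%, near the 8.13%, 9.01% and 9.6% of all genes, of which 5.3%, 6.42% and 6.52% were lower. The medians of the 20 were -0.15, -0.27 and -0.28, beside -0.08, -0.08 and -0.09 over all genes, and the day 3 median turned to 0.04 when the libraries were rescaled to a common sum. CHEK2, a kinase of the DNA damage checkpoint, was higher on all 3 days, with 11.3 FPKM on day 0 and 24.8, 28.1 and 29.8 later. KAT5, the TIP60 acetyltransferase, was lower on all 3, with 23.7 FPKM on day 0 and 11.0, 10.4 and 9.98 later. HIPK2, a kinase that phosphorylates p53, was the other gene that was higher, on days 6 and 9, and NPM1, a nucleolar chaperone, was the other that was lower, on days 3 and 6. Levels of RNA say nothing of the amount or activity of p53 protein, which was not measured in these files.

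Other p53 targets were read in the same way, from a list of 100 symbols of which 97 passed the minimum. On days 3, 6 and 9, 63, 59 and 58 of them were higher and 0 were lower, with medians of 1.34, 1.25 and 1.35. Several of the 97, such as SYTL1 (0.310 FPKM), GRHL3 (0.423) and GLS2 (0.718), were under 1 FPKM on day 0. They passed the minimum only through later libraries, so the minimum favoured those that rose. Over all genes, 8.13%, 9.01% and 9.6% were higher and 5.3%, 6.42% and 6.52% were lower. On all 3 later days 52 of 97 (53.6%) were higher, a smaller share than the 81.1% of the 37, and no test of that difference was made. INPP5D, the SHIP1 phosphatase, rose most, from 1.15 FPKM on day 0 to 67.1, 68.1 and 65.4. RRAD, a small GTPase, had 1.27 FPKM and then 14.9, 34.2 and 47.4, and was the 1 gene of the list past the limit upward between days 3 and 6. SYTL1 was the 1 gene past it downward, with 3.41 FPKM on day 3 and 1.12 on day 6. A single gene is 1.03% of the 97, beside 0.607% of all genes higher and 0.443% lower between these days. Between days 6 and 9, 0 of 97 passed the limit, beside 0.381% of all genes higher and 0.163% lower. CMBL, a carboxymethylenebutenolidase homolog, had 2.59 FPKM on day 0 and 33.0, 32.2 and 34.5 later. ASTN2, an astrotactin, had 2.36 FPKM and then 21.9, 22.4 and 24.8, and DRAM1, a lysosomal regulator of autophagy, had 15.6 and then 104, 130.2 and 127.

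**Figure D5:**
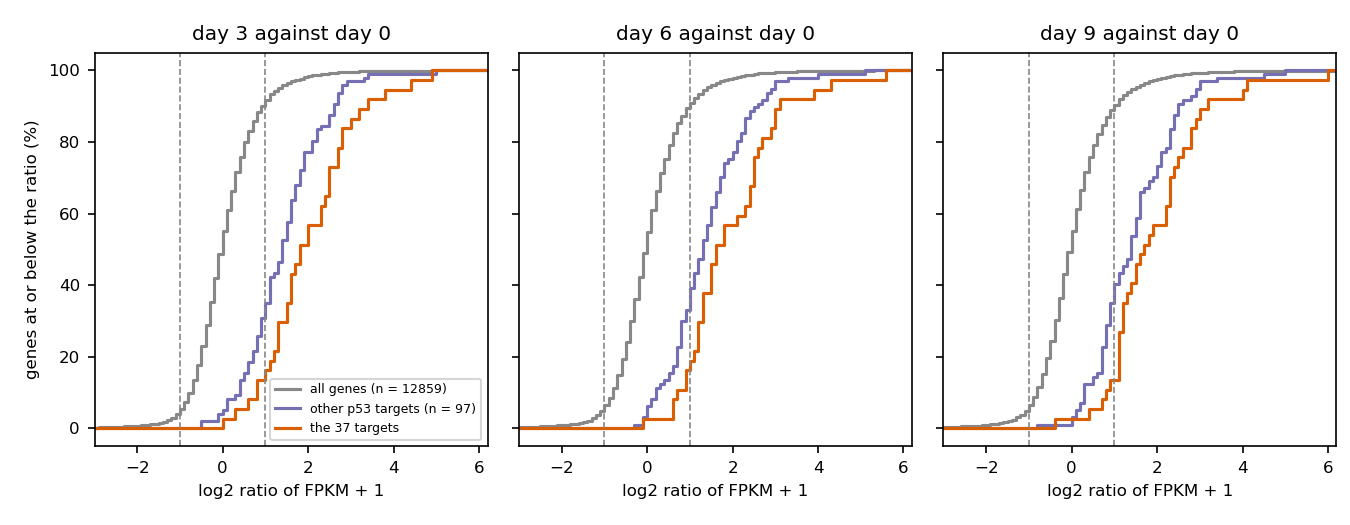
Cumulative share of genes (vertical, percent, in steps of 0.1 on the horizontal axis) by log2 ratio of FPKM + 1 to day 0, for all 12859 genes, 97 other p53 targets and the 37 targets, with 1 panel per later day and the 2-fold limits dashed. The curve of the 37 lies to the right of that of all genes on each day, and the other targets lie mostly between them.

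Long noncoding RNAs with a known link to p53 were in the lncRNA table for 8 of 13 listed names, and all 8 passed the minimum. On days 3, 6 and 9, 7, 6 and 6 of the 8 were higher and 0 lower, beside 14.3%, 15.5% and 13.4% of all 2357 lncRNA genes higher and 5.35%, 5.81% and 6.79% lower. Their medians were 1.77, 1.63 and 1.40, against 0.21, 0.21 and 0.03. LINC01021, a direct target of p53, had 1.27 FPKM on day 0 and 50.05, 40.1 and 29.9 later. MIR34AHG, the host transcript of miR-34a, had 1.01 FPKM and then 14.9, 10.6 and 8.37. Both were lower at each step after day 3 but stayed past the limit. MEG3, an imprinted lncRNA, had 132 FPKM and then 578, 576 and 399. LINC-PINT had 3.14 FPKM and then 13.04, 12.5 and 12.4, with a day 9 log2 ratio of 1.70 that was 0.92 with its most abundant transcript, and TP53TG1 had 5.09 and then 19.8, 13.8 and 13.2. PVT1 was past the limit on all 3 days as well, GAS5 on none (its values of 0.48 and 0.39 on days 6 and 9 turned to -0.13 and -0.14 when the lncRNA table was rescaled to a common sum), and NEAT1 on day 3 alone, with a log2 ratio of 1.05 that was 0.84 once the median of all lncRNA genes was set to 0. The lncRNA values come from a table of their own.

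Some of the 37 answer to other stress pathways too, so those lists were read beside them. The 16 genes of the integrated stress response, which ATF4 drives when translation is curbed, include GDF15 and SESN2, and 6, 8 and 7 of them were higher and 1 (SLC7A11), 0 and 0 lower on the later days, with medians of 0.25, 0.84 and 0.90. DDIT4, with 2.76, 37.6, 27.4 and 20.3 FPKM, is also in the list of other p53 targets. Without these 3 genes, 3, 5 and 4 of 13 were higher, with medians of -0.01, 0.45 and 0.71. Over all genes, 8.13%, 9.01% and 9.6% were higher on these days and 5.3%, 6.42% and 6.52% were lower. ATF3, a stress-induced transcription factor, had 8.61, 33.6, 28.9 and 32.3 FPKM and was past the limit on all 3 days. So was NUPR1, a stress-induced chromatin protein, with 1.58, 5.91, 12.2 and 21.6 FPKM. Of 14 immediate early genes 11 passed the minimum, of which 1, 2 and 3 were higher and 1, 1 and 1 lower, with medians of 0.22, 0.37 and 0.49. The shares higher were 9.09%, 18.2% and 27.3%, and that of day 3 lay near the share of all genes. JUN was past the limit on days 6 and 9 and JUNB on day 9. IER3 had 85.5, 192, 275 and 371 FPKM, and EGR1 had 39.2, 10.1, 6.30 and 11.9.

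Of 18 listed cell cycle genes, 0 were higher on any later day and 8, 9 and 10 were lower on days 3, 6 and 9, beside 5.3%, 6.42% and 6.52% of all genes lower, with medians of -0.94, -1.03 and -1.07. The genes with the largest falls act in mitosis. PLK1, a mitotic kinase, had 130.0 FPKM on day 0 and 8.02, 6.19 and 8.03 later, and CDC20, an activator of the anaphase-promoting complex, had 160.0 and then 20.7, 15.2 and 14.2. AURKA had 112 FPKM and then 18.7, 14.8 and 14.9, CCNB1 had 225 and then 36.4, 31.9 and 32.4, and CCNB2 had 105 and then 31.5, 27.5 and 24.95. CCNA2, another cyclin, was lower on all 3 days too, with 102 FPKM and then 38.9, 37.8 and 36.9. PCNA, RRM2, MCM2, MCM3 and MCM5, which act in DNA replication, stayed within the limit and went both ways. PCNA, the sliding clamp of DNA polymerases, lay above day 0, with 159, 313, 285 and 296 FPKM. So did RRM2, the S-phase subunit of ribonucleotide reductase, with 143, 193, 231 and 255 FPKM. MCM2, MCM3 and MCM5 lay below day 0 in every later library. MCM2 had 52.6, 39.3, 37.9 and 37.1 FPKM, MCM3 had 72.2, 54.1, 54.7 and 63.2, and MCM5 had 80.8, 43.8, 45.3 and 44.0. The part of these stress and cell cycle changes in the levels of the 37 was not tested.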

How the data were processed

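RNA of hFOB 1.19 cells was sequenced on days 0, 3, 6 and 9, with 1 library per time point. Per the labels, ribosomal RNA was removed and directional libraries were made, and RNase R is named for the mRNA libraries but not for the circRNA libraries. RNase R digests linear RNA, so whether this wording is right is not known, and if it is, the FPKM describe RNA left after digestion. The submitters' processing notes name Bowtie 0.12.2 and the build mm8, a mouse build at odds with human samples, and the paper's methods name Bowtie and TopHat. The program behind the FPKM is not given in the sources used here. The authors deposited FPKM per transcript for mRNAs (79798 transcripts) and lncRNAs, with no counts, so depth is unknown and no count model could be used. The sum of all mRNA FPKM was 617857, 538072, 545948 and 569922 from day 0 to day 9.

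FPKM were summed per gene symbol, genes under 1 FPKM in every library were left out, 1 was added and log2 ratios were taken. A gene under 1 FPKM on day 0 was thus kept only if a later library reached 1 FPKM, which favours genes that rose. No gene symbol among the 37 covered more than 1 gene ID. Log2 ratios on this scale understate the change of low genes. Ratios at or past 1 or -1 were called. No test was possible with 1 library per time point. Values of all 4 libraries were given for each target past the limit and for the PADI genes, and for other lists up to 5 genes with the largest log2 ratio on day 9 among those past the limit on all 3 days. Genes of those lists named outside this rule, such as SYTL1, HIPK2, NPM1, JUN, NEAT1 and RPS27, were chosen after their values were seen.

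The members and lists (p53 regulators, other p53 targets, lncRNAs linked to p53, PADI genes, integrated stress response, immediate early, cell cycle, osteoblast and other cell type markers) were chosen with earlier results of these data known. For 1 gene of the list of regulators, the result is not reported here, and the gene was left out of that list. Promoter and miRNA sequences came from RefSeq (GRCh38.p14). The authors' comparison tables hold log2 fold changes, p-values and q-values, which were not used. Gene positions were taken from them, and all 21 positions found for the 37 overlapped the RefSeq GRCh38 gene of that symbol. In all, 26 columns of values per sample were not used, those of circRNAs (whose IDs pair with no gene names) and of the comparison tables. Alternatives covered the pseudocount, the minimum FPKM, the limit, 2 rescalings and the most abundant transcript in place of the sum. Python 3.11.15, numpy 2.4.6, pandas 2.3.3 and matplotlib 3.10.9 were used.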

Additional observations from a re-analysis of the deposited data

How the results depend on the processing

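No paired analysis was possible because there are no replicates (1 library per time point), and for the same reason no library could be left out. Of the 1002 recomputed ratios and medians whose reported value was past the 2-fold limit, 0 changed sign. Settings that only move the limit leave every ratio and median as it was. A changed minimum leaves the ratios of single genes as they were, so many of these values could not change. Sign changes, all within the limit, came in 4 of 1074 ratios of single genes to day 0 (STEAP3 on day 3 and GAS5 on days 6 and 9). They also came in 24 of 716 ratios between later days and 8 of 315 medians. These totals hold values past the limit and unchanged values too. Among the medians was that of the 37 from day 6 to day 9, which went from -0.02 to 0.02 with the most abundant transcript. With a 4-fold limit, 16, 16 and 16 of the 37 targets were higher on days 3, 6 and 9 and 15 on all 3 days, since fewer genes pass a higher limit. Over all genes, 1.66%, 2.01% and 2.34% were higher by 4-fold on these days, and 1.24% on all 3. The medians of the 37 (1.75, 1.60 and 1.64) and of the other p53 targets (1.34, 1.25 and 1.35) lie under that limit, and 22, 22 and 26 of the other targets passed it, with 0 higher and 0 lower between days 3 and 6. Between those 2 days, 0.07% of all genes were higher and 0.0389% lower by 4-fold. With a 1.5-fold limit, 1 of the 37 was higher and 1 lower between days 3 and 6, while of the other targets 1 was lower on day 9 than on day 0, 2 were higher and 3 lower between days 3 and 6, and 1 was higher and 1 lower between days 6 and 9. By this limit 20.4% of all genes were lower on day 9 than on day 0. Between days 3 and 6, 2.32% were higher and 2.17% lower, and between days 6 and 9, 1.51% and 1.38%. With a pseudocount of 0.1, 1 other target was higher between days 6 and 9, beside 0.902% of all genes. With a minimum FPKM of 5, which 35 of the 37 reach, 0 other targets were lower between days 3 and 6, beside 0.344% of all genes. With the most abundant transcript in place of the sum, 1 other target was lower on day 9 than on day 0, and 0 were higher and 2 lower between days 3 and 6. Over all genes, 7.23% were lower on day 9 by this choice, and 0.844% were higher and 0.659% lower between days 3 and 6. Near the limit, POLH on day 6 went from 0.99 to 1.02 with the smaller pseudocount. With the most abundant transcript, the day 9 calls of DDB2 (0.94), POLH (0.92), PMAIP1 (0.95) and LINC-PINT (0.92) and the day 3 and day 9 calls of SPATA18 (0.93 and 0.98) were lost. Rescaling all libraries to a common sum moved the median of all genes from -0.08, -0.08 and -0.09 to 0.10, 0.08 and 0.01. It brought PMAIP1 and APAF1 to 1.06 and 1.002 on day 6 and PERP to 1.04 on day 9, and took the day 9 median of the lncRNAs linked to p53 to 0.95, with TP53TG1 at 0.82 and 0.84 on days 6 and 9 and PVT1 at 0.75 on day 9. Without counts, the precision of genes near 1 FPKM such as SPATA18, TNFRSF10C and PADI4 on day 0 is unknown.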

Other observations

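The table lists 158 transcripts of the 37 targets, of which 116 reached 1 FPKM in any library. On days 3, 6 and 9, 73, 75 and 78 of these were at least 2-fold higher than on day 0 and 0, 1 and 1 were lower, beside 9.46%, 10.4% and 10.8% of all 37418 transcripts higher. The transcript values are estimates that share reads within a gene, and 10 of the 116 were listed at 0 on day 0.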
